A study of Mus musculus with 6 samples.

Results

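Interferon-stimulated genes are the genes that cells switch on when interferon reaches them. A list of 39 such genes was followed through 3 stages of B-cell lymphoma in the mouse, and all 39 were found by symbol among the 37991 gene identifiers counted. Polyadenylated RNA was sequenced from pre-B cells sorted from bone marrow of C57BL/6 mice by high B220, low IgM and low IgD. Wild-type cells came from littermates aged 4 to 6 weeks. Premalignant cells came from E{mu}Myc/+ mice of the same age, heterozygous for a transgene in which the immunoglobulin heavy chain enhancer drives Myc in the B lineage. Malignant cells came from E{mu}Myc/+ mice aged 10 to 20 weeks that had developed spontaneous lymphoma, for which the study's methods describe the sorted cells as negative for IgM and IgD. Each stage has 2 libraries. The methods state that wild-type and premalignant mice were female and that malignant mice were of both sexes, so that age and sex cannot be told apart from malignancy here. The labels do not say whether a library holds 1 animal or several.

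Type I interferons bind the receptor made of IFNAR1 and IFNAR2, whose kinases JAK1 and TYK2 phosphorylate STAT2 and other factors. Together with IRF9 these form a complex that binds the interferon-stimulated response element, a sequence with a pair of GAAA repeats, in the promoters of its target genes. Interferon gamma uses its own receptor and acts in part through IRF1. The products of the target genes sense viral nucleic acids, degrade or trap viral RNA and adjust the signal itself, and many cells express some of these genes without an infection.

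Nearly all of these genes were lower in premalignant than wild-type cells. Of the 39 genes, 33 were called lower and 0 higher, where a call needs a Benjamini-Hochberg adjusted p no higher than 0.1 and a log2 fold change of 0.5 or more in either direction by edgeR's quasi-likelihood test. Among all 16683 genes tested, 20.3% were called lower and 19% higher. The median log2 fold change of the 39 genes was -1.67, compared with -0.08 for all genes tested. From premalignant to malignant cells, 7 of the 39 genes fell further (Irf7, Ifit3, Oas2, Oasl1, Oasl2, Rtp4 and Zbp1) and 0 were called higher, beside 2.45% and 3.73% of all genes. Their median was -0.29, beside 0.04 for all genes. In malignant compared with wild-type cells, 33 were called lower and 1, Gbp3, higher, while 24.3% of all genes were lower and 24.9% higher, and the medians were -2.12 and -0.02. Both comparisons with wild type share the wild-type libraries. The plot of levels by library shows the 6 values of every gene.

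**Figure D1:**
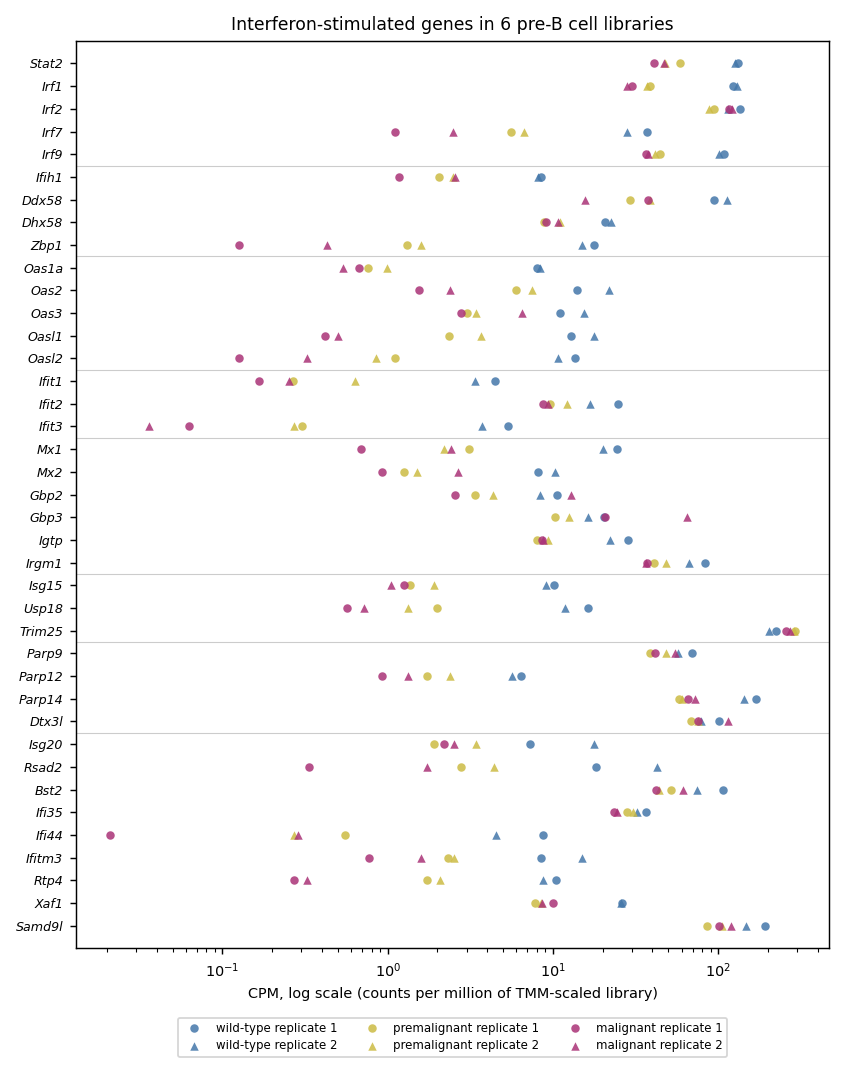
Level of each of the 39 genes in each of the 6 libraries, in CPM of the TMM-scaled library (counts scaled to a common library size) on a log axis, with genes ordered by role and 1 point per library (circles are replicate 1, triangles replicate 2). For 38 of the 39 genes both premalignant points lie to the left of both wild-type points, the exception being Trim25.

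The counts of 0 refer to edgeR. At an unadjusted p under 0.05, 1 gene (Trim25) was higher in premalignant than wild-type cells and 2 (Irf2 and Gbp3) were higher in malignant than premalignant cells. DESeq2 called 0 and 1 higher in these comparisons. The fall in premalignant cells was present in each pair of libraries with the same replicate number, with a median of -1.83 over the 39 genes within replicate 1 and of -1.61 within replicate 2. Its calls rested on both premalignant libraries. Without premalignant replicate 1, 17 of the 39 genes were called lower than in wild type, and without premalignant replicate 2 there were also 17, while 32 of the 33 kept a log2 fold change of -0.5 or below whichever library was left out. The 7 calls between malignant and premalignant cells depended more on single libraries. With either premalignant library left out 0 were called, with either wild-type library left out 1, Rtp4, and with only the premalignant and malignant libraries in the fit 0. Without malignant replicate 2 there were 14, in a fit that called 2009 of all 18065 genes tested lower. All 7 kept a fall of at least 0.5 on the log2 scale whichever library was left out.

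Total counts lay between 30031100 and 53453055 per library, and replicate 1 was the deeper library at each stage. A level of 3 counts corresponded to 0.0526 to 0.108 CPM. The transgene target Myc was at 33.8 and 41.4 CPM in wild-type replicates 1 and 2, at 1164 and 1155 CPM in premalignant cells and at 1732 and 1578 CPM in malignant cells, in the order of the labels. Of 8 B-lineage markers, all were detected in every library. The surrogate light chain genes were lower in both Myc stages. Vpreb1 was at 115 and 131 CPM in wild type, at 9.74 and 4.88 in premalignant and at 0.146 and 4.05 in malignant cells, and Igll1 followed the same order with 197 and 195, then 18.8 and 9.58, then 0.167 and 7.56 CPM.

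Most markers of other blood cells that the sort could hold moved with the interferon-stimulated genes in premalignant compared with wild-type cells. Of the markers of plasmacytoid dendritic cells, which carry B220 and are known for making type I interferon, 5 of 6 were called lower in premalignant than wild-type cells, and their summed level went from 369 and 242 CPM in wild type to 74 and 36.7 CPM in premalignant and 9.43 and 44.9 CPM in malignant cells. For myeloid cells 8 of 9 markers were called lower, with sums of 779 and 1710, then 233 and 250, then 55.7 and 114 CPM. Of the NK cell markers 5 of 5 were called lower, with sums of 203 and 63, then 10.3 and 3.13, then 3.68 and 5.05 CPM. T-cell markers were called lower in 4 of 6 cases, with sums of 67.1 and 39.4, then 31.4 and 14.2, then 1.34 and 11 CPM. Cd4 and Cd8a were not called. Cd8a was at 8.54 and 5.63, then 17.8 and 6.84, then 0.23 and 6.45 CPM. In malignant compared with premalignant cells the median log2 fold change of the T-cell markers was 0.48. Among erythroid markers 4 of 5 were called lower, with sums of 293 and 1080, then 59.9 and 138, then 52.3 and 57.5 CPM. The B-lineage list fell as well, with 7 of 8 genes called lower and sums of 4755 and 5807, then 3016 and 3052, then 2988 and 2713 CPM. In malignant compared with premalignant cells 0 genes of these 6 lists were called in edgeR. The only marker at 0 in any library was Cd3e, in premalignant replicate 2. The summed level of the 39 genes was 1956 and 1777 CPM in wild-type, 1017 and 1061 CPM in premalignant and 978 and 1148 CPM in malignant cells. In bulk libraries fewer cells of a type and less RNA per cell cannot be told apart, and the part of these other cells in the results below was not tested.

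**Figure D2:**
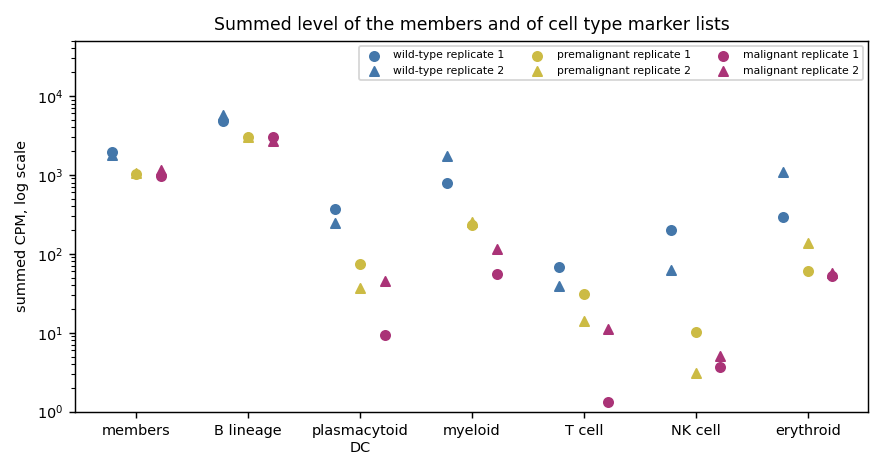
Summed CPM on a log axis of the 39 interferon-stimulated genes (members) and of 6 lists of cell type markers, with 1 point per library. The members' sum lies between 1777 and 1956 CPM in the wild-type libraries and between 978 and 1148 CPM in the other 4 libraries, while the NK cell markers go from 63 to 203 CPM in wild type to at most 10.3 CPM.

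Promoter sequences were available for 30 of the 39 genes, as RefSeq windows of GRCm38.p6 from 250 bases before to 50 bases after the gene's start. The core of the response element was searched as GAAANNGAAA on either strand, where the other strand reads TTTCNNTTTC and overlapping matches were counted separately. It was present in a window of 16 of the 30 genes (53.3%), some of which have more than 1 window, and 8 genes had more than 1 match. Among all genes in the table, 1079 of 27025 (3.99%) held it. The windows of the genes with the largest falls in premalignant cells among those with a match, and that of Isg15, which had 3 overlapping matches, are shown here with the matches in capitals, read 5′ to 3′ on the strand of the gene.
Ifit3, chr19:34583279-34583578, plus strand: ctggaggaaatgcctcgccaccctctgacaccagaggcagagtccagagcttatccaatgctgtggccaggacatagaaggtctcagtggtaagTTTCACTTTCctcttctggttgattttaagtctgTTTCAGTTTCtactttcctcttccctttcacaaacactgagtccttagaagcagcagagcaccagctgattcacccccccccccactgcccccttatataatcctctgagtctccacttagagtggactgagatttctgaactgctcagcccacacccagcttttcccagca
Oas1a, chr5:120907476-120907775, minus strand: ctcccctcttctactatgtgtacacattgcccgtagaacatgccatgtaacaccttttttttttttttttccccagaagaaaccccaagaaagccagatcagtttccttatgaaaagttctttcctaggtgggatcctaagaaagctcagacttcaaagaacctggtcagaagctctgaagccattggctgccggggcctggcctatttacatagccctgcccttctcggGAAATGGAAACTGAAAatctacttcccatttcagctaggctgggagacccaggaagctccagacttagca
Ifit1, chr19:34640639-34640938, plus strand: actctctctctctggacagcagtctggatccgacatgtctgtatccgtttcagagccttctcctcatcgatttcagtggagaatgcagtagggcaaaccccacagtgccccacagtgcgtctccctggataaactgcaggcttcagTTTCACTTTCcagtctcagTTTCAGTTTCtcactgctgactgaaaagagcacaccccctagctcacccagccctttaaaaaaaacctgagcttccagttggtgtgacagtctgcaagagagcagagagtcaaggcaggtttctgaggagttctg
Rsad2, chr12:26456403-26456702, minus strand: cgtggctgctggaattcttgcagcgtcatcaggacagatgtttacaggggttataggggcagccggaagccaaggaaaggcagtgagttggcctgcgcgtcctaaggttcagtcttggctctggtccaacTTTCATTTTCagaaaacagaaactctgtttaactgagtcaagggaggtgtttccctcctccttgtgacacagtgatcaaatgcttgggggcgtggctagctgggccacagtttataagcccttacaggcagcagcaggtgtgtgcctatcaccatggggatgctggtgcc
Isg15, chr4:156200769-156201068, minus strand: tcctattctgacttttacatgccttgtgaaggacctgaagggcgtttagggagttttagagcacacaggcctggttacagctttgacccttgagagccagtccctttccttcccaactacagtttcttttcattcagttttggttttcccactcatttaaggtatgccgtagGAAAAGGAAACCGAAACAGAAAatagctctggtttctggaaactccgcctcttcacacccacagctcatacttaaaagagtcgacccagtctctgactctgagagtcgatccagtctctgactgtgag

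The first match began 156 bases before the start in Ifit3, 20 in Oas1a, 104 in Ifit1, 120 in Rsad2 and 78 in Isg15. Of the 16 genes with a match, 13 were called lower in premalignant than wild-type cells. The other 3 also held the motif, as these 30-base sections of their windows show.
Irf2: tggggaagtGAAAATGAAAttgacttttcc
Gbp2: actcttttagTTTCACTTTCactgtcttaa
Gbp3: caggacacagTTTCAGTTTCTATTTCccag
The median log2 fold change of the 16 genes with a match in premalignant compared with wild-type cells was -1.75. Of the 14 genes with no match in any window, 11 were called lower and the median was -1.61, and of the 9 genes without a window in the table, 9 were called lower with a median of -2.33. A match describes letters in the window only.

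Among the transcription factors of the pathway, 4 of 5 genes were called lower in premalignant than wild-type cells, and 1 of them, Irf7, fell again in malignant cells. Throughout, pairs of values are replicate 1 and replicate 2, levels are CPM and changes are log2 fold changes ± SE from all 6 libraries, with adjusted p from edgeR. Stat2, the subunit that carries the activation domain of the complex, was at 131 and 126 CPM in wild type, 58.6 and 47.8 CPM in premalignant and 41 and 47.1 CPM in malignant cells. It fell by 1.27 ± 0.16 on the log2 scale (adjusted p = 0.00387), with both premalignant libraries well below both wild-type libraries. Its DNA-binding partner Irf9 was at 108 and 101 CPM, then 44.4 and 41.6, then 36.5 and 37.5, and its premalignant change of -1.28 ± 0.13 was nearly that of Stat2. Exons of Irf9 overlap those of Rnf31 on the same strand, and reads there cannot be assigned to either gene with certainty. Irf1, an activator induced above all by interferon gamma, was at 123 and 129 CPM in wild type, 38.4 and 37 in premalignant and 30 and 27.9 in malignant cells. That fall, of 1.74 ± 0.13 on the log2 scale, was larger than those of Stat2 and Irf9 and had as small an error (adjusted p = 0.00173), and the malignant libraries lay below the premalignant ones without passing the test (-0.38 ± 0.13, adjusted p = 0.184).

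Irf7, the regulator that amplifies type I interferon production, had the steepest course of the 5 factors. It was at 37.1 and 28.1 CPM in wild type, 5.6 and 6.66 in premalignant and 1.11 and 2.47 in malignant cells, so that no library of a later stage reached the level of an earlier one. The first step was -2.41 ± 0.40 (adjusted p = 0.0085) and the second -1.79 ± 0.41 (adjusted p = 0.0845), which together made the malignant level 18.5-fold lower than wild type. The malignant libraries differed more than 2-fold from each other. Irf2, known as a competitor of Irf1 at the same elements, was not called in any comparison with TMM normalization, the default filter and all 6 libraries. Its values were 135 and 114 CPM in wild type, 94.1 and 88.4 in premalignant and 116 and 121 in malignant cells. The premalignant change of -0.45 ± 0.14 stayed under the size required for a call (adjusted p = 0.0519). It was called lower there with upper-quartile normalization (-0.53, adjusted p = 0.0284) and with at least 10 counts in every library (-0.51, adjusted p = 0.0287).

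All 4 sensors of foreign nucleic acid were called lower in premalignant cells, and 1 of them, Zbp1, fell again in malignant cells. Zbp1, a sensor of Z-form nucleic acid that can start cell death, was at 17.7 and 15 CPM in wild type, 1.31 and 1.6 in premalignant and 0.126 and 0.43 in malignant cells. The 3 stages did not overlap, and the steps were -3.49 ± 0.52 (adjusted p = 0.00605) and -2.46 ± 0.55 (adjusted p = 0.0823). Ddx58, which encodes the RNA sensor RIG-I, was at 94.7 and 113 CPM, then 29.4 and 38.9, then 37.4 and 15.7. It was 3.05-fold lower in premalignant cells, and 1 malignant library lay between the premalignant ones and the other below both. It was the only 1 of the 39 genes more than 2-fold higher in malignant replicate 1 than in replicate 2. Ifih1, which encodes the sensor MDA5, was at 8.52 and 8.15 CPM in wild type, 2.04 and 2.47 in premalignant and 1.17 and 2.55 in malignant cells, a premalignant change of -1.89 ± 0.44. Dhx58, which encodes LGP2, a helicase that modulates RIG-I and MDA5, had levels of 20.6 and 22.3, then 8.78 and 11.1, then 9.12 and 10.7 CPM. Its fall of 1.11 ± 0.23 on the log2 scale took place in premalignant cells, and the change from there to malignant cells was -0.01 ± 0.23.

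The oligoadenylate synthetases answer double-stranded RNA by making the second messenger that activates RNase L. These and the oligoadenylate synthetase-like genes were called lower in 5 of 5 cases in premalignant cells. In 3 of 5 cases they were called lower again in malignant cells. The family thus held 3 of the 7 genes called at the second step. Oas1a was at 8.04 and 8.35 CPM in wild type and 0.762 and 0.994 in premalignant cells, 9.34-fold lower (adjusted p = 0.00279), and at 0.669 and 0.538 in malignant cells. Oas2 was at 13.9 and 21.9, then 6 and 7.44, then 1.55 and 2.37 CPM, with steps of -1.41 ± 0.35 and -1.79 ± 0.36 (adjusted p = 0.0284 and 0.0668). Its first step was the smallest of the family, and its second was of similar size. Oas3 had no call at the second step, with 11.1 and 15.5 CPM in wild type, 3.03 and 3.4 in premalignant and 2.76 and 6.49 in malignant cells. It fell by 2.05 ± 0.46 on the log2 scale in premalignant cells, and the 2 malignant libraries differed by more than 2-fold around the premalignant level (0.52 ± 0.45, adjusted p = 0.592).

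The oligoadenylate synthetase-like genes fell at both steps. Oasl1, whose product restrains translation of Irf7, was at 12.8 and 17.6 CPM in wild type, 2.36 and 3.68 in premalignant and 0.418 and 0.502 in malignant cells. The steps were -2.34 ± 0.36 and -2.71 ± 0.39 (adjusted p = 0.00661 and 0.0289), with wide gaps between the stages. Oasl2, an antiviral relative, was at 13.5 and 10.7, then 1.11 and 0.844, then 0.126 and 0.323 CPM, with steps of -3.63 ± 0.48 and -2.18 ± 0.51 (adjusted p = 0.00442 and 0.0898). Only 15 reads in both malignant libraries together were counted for Oasl2, against 1149 in wild type. Scaled to library size, this was a 62.8-fold difference with a 95% counting interval from 37.9 to 113.

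The 3 IFIT genes, whose products bind viral RNA and the translation machinery, were called lower in premalignant cells, and Ifit3 fell again in malignant cells. Ifit3 was at 5.36 and 3.71 CPM in wild type, 0.305 and 0.271 in premalignant and 0.0628 and 0.0358 in malignant cells. Its first step was -3.96 ± 0.44 (adjusted p = 0.00286) and its second -2.41 ± 0.54 (adjusted p = 0.08), and the malignant libraries held 3 and 1 reads. From wild type to malignant cells the ratio of the summed counts, scaled to library size, was 89.5-fold, with a counting interval from 34.7 to 330. Ifit1 was at 4.47 and 3.37 CPM in wild type, 0.267 and 0.633 in premalignant and 0.167 and 0.251 in malignant cells. It fell by 3.14 ± 0.54 on the log2 scale in premalignant cells, whose libraries differed more than 2-fold from each other, and was not called between the later stages. Ifit2 had the smallest fall of the family, with 24.7 and 16.8 CPM in wild type, 9.58 and 12.2 in premalignant and 8.68 and 9.28 in malignant cells (-0.93 ± 0.27, adjusted p = 0.0442).

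With the default filter and all 6 libraries, 4 of the 6 interferon-inducible GTPases were called lower in premalignant cells. By edgeR, 0 were called between premalignant and malignant cells in that fit. Mx1, which encodes a dynamin-like protein, was at 24.5 and 20.2 CPM in wild type, 3.09 and 2.2 in premalignant and 0.69 and 2.4 in malignant cells. It was 8.42-fold lower in premalignant cells (adjusted p = 0.0126), and only malignant replicate 1 lay below both premalignant libraries. Mx2 was at 8.11 and 10.3, then 1.26 and 1.51, then 0.92 and 2.65 CPM, with a premalignant change of -2.74 ± 0.55. Igtp and Irgm1, GTPases that act at vacuoles holding intracellular pathogens, were lower at the first step and near that level afterwards. Igtp was at 28.4 and 22.1 CPM in wild type, 7.98 and 9.31 in premalignant and 8.53 and 8.71 in malignant cells, a fall of 1.55 ± 0.23 on the log2 scale. Irgm1 was at 83 and 67, then 40.7 and 48, then 37.1 and 36.6 CPM, 1.69-fold lower in premalignant cells (adjusted p = 0.0198).

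The guanylate-binding proteins Gbp2 and Gbp3, which attack vacuoles and membranes of pathogens, were not called lower in any comparison with all 6 libraries. Gbp2 was at 10.6 and 8.38 CPM in wild type, 3.39 and 4.31 in premalignant and 2.57 and 12.8 in malignant cells and was not called in any comparison (premalignant vs. wild type -1.30 ± 0.69, adjusted p = 0.198). Its malignant value was below the premalignant level in replicate 1 and above the wild-type level in replicate 2, and without malignant replicate 2 it was called lower than wild type (-1.86). Gbp3 was at 20.4 and 16.4, then 10.3 and 12.5, then 20.6 and 64.5 CPM. Both malignant libraries lay above both premalignant ones (1.90 ± 0.51, adjusted p = 0.121, unadjusted p = 0.00924), a difference that DESeq2 called. It was the only 1 of the 39 genes called higher by edgeR, in malignant compared with wild-type cells (1.21 ± 0.50, adjusted p = 0.0971, unadjusted p = 0.0504), and the call rested on replicate 2, since the log2 ratio was 0.02 within replicate 1 and 1.98 within replicate 2. Gbp3 was no longer called higher with upper-quartile normalization or with DESeq-type size factors.

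In the ISG15 system a ubiquitin-like protein is joined to others. Of its 3 genes in this list, the modifier Isg15 and its protease Usp18 fell and Trim25 did not. Isg15 was at 10.2 and 9.12 CPM in wild type, 1.37 and 1.9 in premalignant and 1.26 and 1.04 in malignant cells. It was 5.91-fold lower in premalignant cells (adjusted p = 0.00458), with no overlap. Usp18, the protease that removes ISG15 and also damps the type I receptor, was at 16.4 and 11.9, then 1.98 and 1.33, then 0.565 and 0.717 CPM. The premalignant change was -3.09 ± 0.37 (adjusted p = 0.00358), and the malignant libraries lay below the premalignant ones without a call (-1.38 ± 0.37, adjusted p = 0.121). Trim25, a ubiquitin ligase that activates RIG-I, was at 224 and 203 CPM in wild type, 292 and 289 in premalignant and 256 and 270 in malignant cells. It was the 1 gene of the list with both premalignant libraries above both wild-type libraries, by 0.45 ± 0.13 on the log2 scale, short of the size required for a call.

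The PARP group, enzymes and partners of ADP-ribosylation, had the smallest median change of the groups in premalignant cells, -0.97 over its 4 genes, of which 3 were called lower. Parp14 was at 170 and 144 CPM in wild type, 58.2 and 60.2 in premalignant and 65.5 and 72.2 in malignant cells, a premalignant fall of 1.40 ± 0.14 on the log2 scale (adjusted p = 0.00264). Parp12 was at 6.38 and 5.63, then 1.73 and 2.38, then 0.92 and 1.33 CPM, 2.92-fold lower in premalignant cells. Parp9 and Dtx3l, whose products work as a pair, overlap head to head, and unstranded counting could not separate reads from their shared part. Parp9 was at 69.2 and 57.3 CPM in wild type, 38.8 and 48 in premalignant and 41.5 and 54.5 in malignant cells, and was called lower in premalignant cells (-0.55 ± 0.21, adjusted p = 0.0898). Both malignant libraries also lay below both wild-type ones (-0.40 ± 0.20, adjusted p = 0.163), a difference called with upper-quartile normalization and without malignant replicate 2. The premalignant call was lost with DESeq-type size factors, with only these stages in the fit and without any 1 of the wild-type or premalignant libraries or malignant replicate 2. For Dtx3l the levels were 101 and 78.7, then 68.2 and 75.4, then 75.2 and 114 CPM, with no call.

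The remaining 9 effectors included 8 that were called lower in premalignant cells. Rtp4, a chaperone of membrane receptors that is also strongly interferon-inducible, was the only 1 of them to fall again in malignant cells. It was at 10.5 and 8.69 CPM in wild type, 1.73 and 2.08 in premalignant and 0.272 and 0.323 in malignant cells. Both steps were regular in the libraries, at -2.33 ± 0.32 and -2.68 ± 0.35 (adjusted p = 0.0051 and 0.0251). Rsad2, which encodes viperin, an enzyme that makes a chain-terminating nucleotide, was at 18.1 and 42.5, then 2.76 and 4.4, then 0.335 and 1.72 CPM. It was 8.48-fold lower in premalignant cells (adjusted p = 0.0289), although the wild-type libraries themselves differed more than 2-fold, and the malignant libraries did so too. Ifi44 was at 8.68 and 4.53 CPM in wild type, 0.553 and 0.271 in premalignant and 0.0209 and 0.287 in malignant cells, the last from 1 and 8 reads. Its premalignant change of -3.97 ± 0.91 was the largest of the 39 genes in size and carried the largest error.

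Ifitm3, which blocks fusion of viruses in endosomes, was at 8.41 and 14.9 CPM in wild type, 2.31 and 2.53 in premalignant and 0.774 and 1.58 in malignant cells, with a premalignant change of -2.27 ± 0.47. Isg20, an exonuclease, was at 7.26 and 17.7, then 1.91 and 3.43, then 2.18 and 2.51 CPM, 4.68-fold lower in premalignant cells. In both genes the wild-type libraries were apart and yet lay above all 4 later libraries. Xaf1, known as an antagonist of the apoptosis inhibitor XIAP, was at 26 and 25.9 CPM in wild type, 7.74 and 8.5 in premalignant and 9.94 and 8.64 in malignant cells, a premalignant fall of 1.67 ± 0.21 on the log2 scale. Samd9l, a restriction factor that slows growth, was at 192 and 147, then 85.7 and 105, then 101 and 120 CPM, 1.78-fold lower in premalignant cells. Bst2, which encodes tetherin, was at 107 and 74.8 CPM in wild type, 51.7 and 43.9 in premalignant and 41.9 and 61 in malignant cells (-0.92 ± 0.25, adjusted p = 0.0378). Ifi35 was the exception, with 36.5 and 32.2, then 27.9 and 30.5, then 23.4 and 24.4 CPM. It was not called in premalignant cells (-0.24 ± 0.16) and was lower in malignant than wild-type cells (-0.52 ± 0.16, adjusted p = 0.0376). That call was lost with no filter on low counts, with only the stages compared and without malignant replicate 1, wild-type replicate 1 or either premalignant library.

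**Figure D3:**
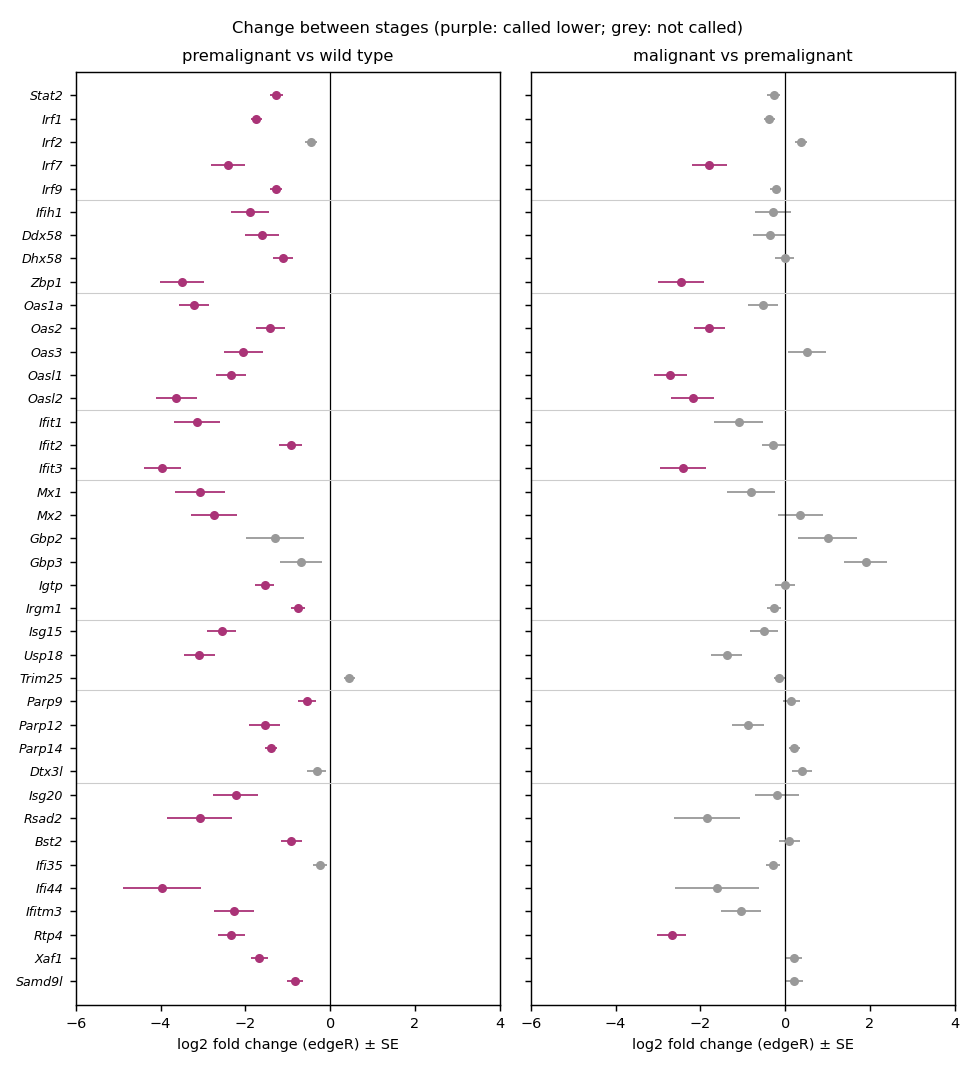
Log2 fold change of each gene with its standard error in premalignant compared with wild-type cells (left) and in malignant compared with premalignant cells (right), from edgeR, in purple where called lower and in grey where not called. On the left 33 genes are purple and on the right 7, and the changes range from -3.97 (Ifi44) to 0.45 (Trim25) on the left and from -2.71 (Oasl1) to 1.90 (Gbp3) on the right.

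Across the list, 7 genes were called lower at both steps, 25 fell in premalignant cells and were lower than wild type in malignant cells with no call between these stages, and Parp9 was called in premalignant compared with wild-type cells alone. Gbp3 and Ifi35 were called only between malignant and wild-type cells. Irf2, Trim25, Dtx3l and Gbp2 were not called in any comparison. These calls are from edgeR with TMM normalization and its default filter on all 6 libraries. Both premalignant libraries lay below both wild-type libraries for 38 of the 39 genes, as they did for 41.2% of all genes tested. Both malignant libraries lay below both premalignant ones for 21 of the 39 genes, beside 25.2% of all genes, and below both wild-type ones for 34, beside 36.4%. Levels per exon length in wild-type cells ranged from 1.21 RPKM (reads scaled to exon length and library size) for Ifi44 to 133 RPKM for Bst2, followed by Irf2 at 56.3 and Trim25 at 41.6 RPKM. Bst2 remained the highest per length in premalignant and malignant cells, at 60.9 and 61.9 RPKM.

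The malignant libraries differed from each other more than those of the other stages did. Of the 39 genes, 13 differed more than 2-fold between the 2 malignant libraries, beside 21.9% of all genes tested. In 12 of these replicate 2 was higher (Irf7, Ifih1, Mx1, Mx2, Oas3, Oasl2, Rsad2, Ifi44, Ifitm3, Gbp2, Gbp3 and Zbp1), and the exception was Ddx58. Only 2 genes differed as much in wild type (Isg20 and Rsad2) and 2 in premalignant cells (Ifi44 and Ifit1), beside 9.19% and 8.83% of all genes. Malignant replicate 2 also had the larger summed level of plasmacytoid dendritic cell, myeloid, T-cell and NK cell markers of the malignant pair. The larger T-cell sum came mainly from Cd8a (0.23 and 6.45 CPM) and Cd4 (0.126 and 2.4 CPM). Cd3d alone of the T-cell markers was not higher in replicate 2 (0.711 and 0.681 CPM). The part of such cells in these differences was not tested.

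**Figure D4:**
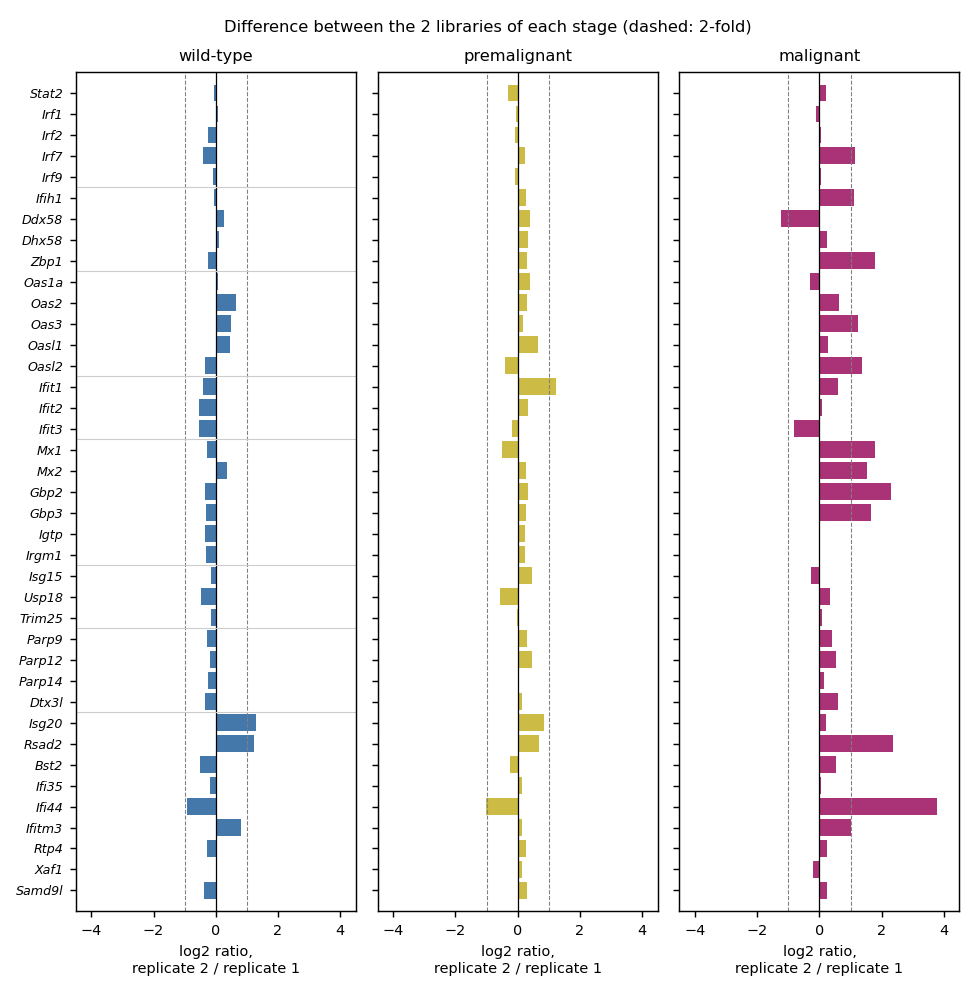
Log2 ratio of replicate 2 to replicate 1 for each gene within each stage, in CPM, with dashed lines at a 2-fold difference. In the malignant stage 12 bars pass the right line and 1, Ddx58, the left line, and in the wild-type and premalignant stages 2 bars each pass a line.

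The upstream part of the pathway moved in the same direction at the first step. Of 15 receptor and signalling genes, 14 were called lower and 0 higher in premalignant than wild-type cells. Among the largest changes were those of Il28ra, the receptor subunit for interferon lambda, at -2.12, Ifnar1 at -1.25 and Stat3 at -1.21. Irf3, the factor that starts interferon transcription, was the 1 gene of this list without a call (-0.08). In malignant compared with premalignant cells, Irf5 (1.27) and Ifngr1 (0.80) were higher and Il28ra (-1.84) was lower, and 10 of the 15 were lower and 1 higher than in wild type.

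Of 15 tested genes of the induction pathway, which leads from sensing to interferon, 6 were lower and 1, Traf3 (0.72), was higher in premalignant cells. The largest falls were in the endosomal RNA receptor Tlr7 (-2.75), the DNA sensor Ifi204 (-2.73), the DNA receptor Tlr9 (-1.72) and its transporter Unc93b1 (-1.67). Tlr9 and Tmem173, which encodes STING, were higher again in malignant than premalignant cells (1.33 and 1.15), whereas the DNA sensor Aim2 fell further (-2.09). Of 14 tested negative regulators and nucleases, 6 were lower and 3 higher in premalignant cells, the latter a share near that of all genes. Socs3 (-2.69) and Socs1 (-2.45), feedback inhibitors of JAK kinases, were lower, while the higher genes were the 3 subunits of ribonuclease H2, Rnaseh2a (1.11), Rnaseh2b (0.64) and Rnaseh2c (0.55). Ptpn6 (0.56) was the only gene of that list called between the later stages.

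Of 37 further interferon-stimulated genes tested, 30 were called lower and 0 higher in premalignant than wild-type cells, with a median of -1.99. Among them the chemokine gene Ccl5, also a product of NK and T cells, was at 28.5 and 13.3 CPM in wild type, 0.8 and 0.422 in premalignant and 0.69 and 0.574 in malignant cells. Between premalignant and malignant cells, Gbp9 (-3.12) and Ddx60 (-2.44) were lower and Tor3a (1.54), Gbp7 (1.42), Lgals3bp (1.40) and Ly6e (0.99) were higher. The guanylate-binding genes Gbp9 and Gbp7 were called in opposite directions at the second step, Gbp9 going from 14 and 14.7 to 1.59 and 1.72 CPM and Gbp7 from 3.64 and 4.34 to 10.6 and 10.8 CPM. For the interferon genes themselves, 12 were found and 1, Ifng, had enough reads to be tested. Ifng was at 1.37 and 1.05 CPM in wild type, 0.114 and 0.0603 in premalignant and 0.105 and 0.502 in malignant cells, and was lower in premalignant cells (adjusted p = 0.0199). The other interferon genes were at 0.17 CPM or below in every library.

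**Figure D5:**
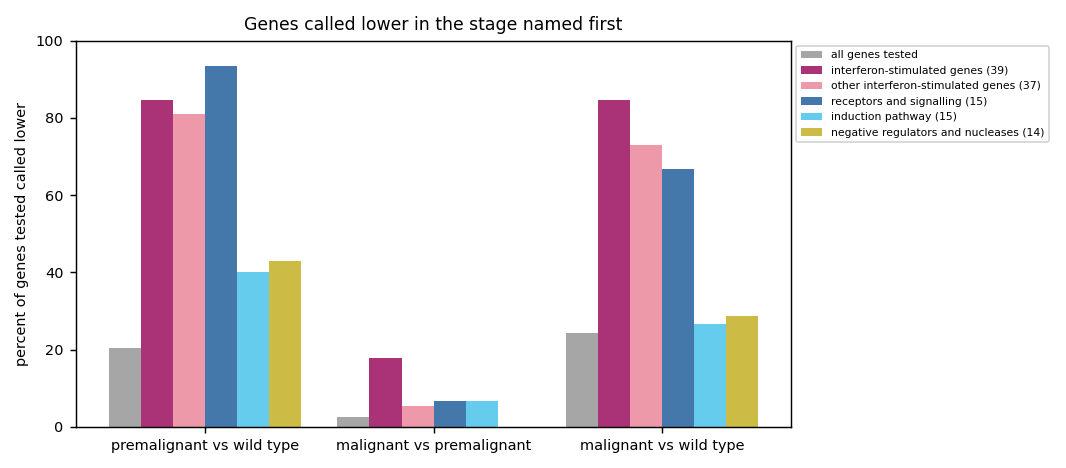
Percent of the genes tested in each list that were called lower in the stage named first, for the 3 comparisons, with the number of genes tested in brackets and all 16683 genes tested in grey. In premalignant compared with wild-type cells, 84.6% of the 39 interferon-stimulated genes are called lower, beside 20.3% of all genes.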

How the data were processed

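RNA-seq of 6 libraries was analysed, 2 each from wild-type, premalignant and malignant cells, grouped by their labels. The authors aligned single-end reads of 50 bp by TopHat and used HTSeq to obtain the raw counts per Ensembl gene that they deposited. The submitters' processing notes name CASAVA 1.8.2, Bowtie, HTSeq, DESeq and mm9. The HTSeq options, strand setting and annotation release are not given in the sources used here. The authors' deposited DEseq tables hold stage means, fold changes and p-values of malignant cells against each other stage and were not used.

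Symbols came from GENCODE vM1 (37205 of 37991 identifiers matched). edgeR 4.0.16 (R 4.3.3) was fitted to all 6 libraries with TMM normalization and its default filter on low counts, and tested two-sided by quasi-likelihood. Thresholds were those of the study's methods. DESeq2 1.42.0, other normalizations, filters and thresholds, fits of only the stages compared, the replicate number as a block and leaving out each library were alternatives. The fits were tested on simulated data. CPM used TMM-scaled library sizes, and RPKM was derived from the same counts with total counts and exon length.

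The members, their roles, the other lists and the motif were chosen with earlier results of these data known. Values in all libraries were to be given for members called between premalignant and wild-type or malignant and premalignant cells and for members whose 2 libraries of a stage differed over 2-fold, and from related lists up to 4 called genes with the largest change per comparison. Genes named outside that rule were chosen after their values were seen. Some genes of the related lists are not reported here by name. Exons of 8 members (Irf1, Irf7, Irf9, Dhx58, Oasl1, Parp9, Dtx3l and Ifi35) overlap another gene, and reads of close copies (OAS, OASL, IFIT, GBP and Mx genes) may be split, so these are uncertain. The study describes biological replicates, but p-values measure only the spread between these libraries, and an exact permutation test of 2 against 2 cannot give a two-sided p below 0.333. Intervals cover counting error only.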

Additional observations from a re-analysis of the deposited data

How the results depend on the processing

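The number of the 39 genes called lower in premalignant than wild-type cells, 33, ranged from 17 to 35 when a library was left out, the lowest with premalignant replicate 1 or 2 left out, and the number called lower in malignant than wild-type cells, 33, from 30 to 35. The 7 called lower in malignant than premalignant cells became 4 with at least 10 counts in every library, where 33 of the 39 genes were tested, 0 with only the stages compared in the fit, 2 at an FDR of at most 0.05 and 0 to 14 when a library was left out. With premalignant replicate 1 or 2 left out, 0 of all genes were called there. Genes called higher in premalignant than wild-type cells numbered 1 with only the stages compared, 1 with no minimum fold change and 0 to 1 when a library was left out. In malignant compared with premalignant cells 1 was higher with DESeq2, 1 with no filter on low counts, 1 with at least 10 counts in every library and 0 to 4 with a library left out. Of malignant compared with wild-type cells, the single higher gene, Gbp3, gave a count of 0 with upper-quartile normalization, with DESeq-type size factors, with at least 10 counts in every library, with only the stages compared and at an FDR of at most 0.05, a count of 2 with no minimum fold change, and 0 to 1 with a library left out. The causes were not tested.

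With the replicate number as a block, 33 genes were lower in premalignant and 33 in malignant than wild-type cells, 7 were lower in malignant than premalignant cells (with Rsad2 in place of Oasl2), and 0 were higher in malignant than wild-type cells. The deviations of same-numbered libraries correlated at 0.509, 0.257 and 0.186 in the 3 pairs of stages, but with 2 numbers and no shared litter or batch in the labels the numbers were not taken as pairs. Upper-quartile normalization moved the median of all genes from -0.02 to -0.19 in malignant compared with wild-type cells, and in malignant compared with premalignant cells it gave 487 genes higher and 492 lower, in place of 623 and 408.

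Some genes that were not called with all 6 libraries moved when a malignant library was left out. In malignant compared with premalignant cells, some log2 fold changes kept their sign and became larger in size. Without malignant replicate 1 they were -1.12 for Ddx58, 1.74 for Gbp2, 1.01 for Oas3 and 0.66 for Dtx3l. Without malignant replicate 2 the value was -0.97 for Ifih1. The sign reversed for Dhx58, Ifih1 and Igtp without malignant replicate 1. It reversed for Bst2, Ddx58, Gbp2, Mx2, Oas3 and Parp9 without malignant replicate 2. Ranges of the log2 fold change were taken over all alternative fits, among them those that left out a library. In malignant compared with premalignant cells they were -0.23 to 0.35 for Bst2, -1.12 to 0.10 for Ddx58, -0.17 to 0.17 for Dhx58, -0.61 to 1.74 for Gbp2, -0.97 to 0.18 for Ifih1, -0.11 to 0.11 for Igtp, -0.55 to 0.30 for Isg20, -0.61 to 0.94 for Mx2, -0.25 to 1.01 for Oas3 and -0.10 to 0.33 for Parp9. In malignant compared with wild-type cells, the ranges were -1.86 to 0.44 for Gbp2, -0.24 to 0.05 for Irf2 and -0.23 to 0.35 for Dtx3l, which was at -0.09 with upper-quartile normalization and -0.02 with at least 10 counts in every library. Where a malignant or premalignant library is left out, the lone library is assumed to vary like those of the other stages. With 2 libraries per stage, and few reads in malignant cells for Ifit1, Ifit3, Oasl2 and Ifi44, sizes at the second step are known only roughly.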

Other observations

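Among the related genes, named here after their values were seen, Ifitm1, which neighbours Ifitm3 and encodes a membrane protein that blocks viral entry, was at 2.07 and 5.66 CPM in wild type, 0.972 and 0.753 CPM in premalignant and 0.188 and 31.7 CPM in malignant cells. Ikbke, a kinase upstream of interferon transcription, was at 0.92 and 9.86 CPM in the malignant libraries, beside 7.5 and 8.72 CPM in wild type. Neither was called in any of the 3 comparisons in edgeR.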
